A study of Mus musculus with 18 samples.

Results

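The circadian clock genes described here are 10 genes, Clock, Npas2, Per1, Per2, Per3, Cry1, Cry2, Nr1d1, Nr1d2 and Dbp, out of 56953 gene identifiers in the count files. They were chosen by symbol, as named components of the molecular clock, and were found by matching the symbols to Ensembl identifiers. All 10 passed the filter on low counts, as did 16747 genes in all. Natural killer (NK) cells, innate lymphocytes that recognise and lyse target cells, were isolated from mouse spleen and kept in hypoxic culture (1% oxygen) with human interleukin 2 at 1700 U/ml. RNA was taken after 7 days. Sequencing gave 18 libraries in 6 groups of 3 biological replicates, and the study asked how deletion of Hif1a and of Ahr alters the transcriptome of hypoxic NK cells.

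By genotype, Hif1a KO (knockout) cells were Ncr1 iCre, Hif1a fl/fl and Hif1a flox cells were Hif1a fl/fl. Ahr KO cells were Ncr1 iCre, Ahr fl/fl and Ahr flox cells were labelled Ahr fl/f. Hif1a Ahr KO cells combined Ncr1 iCre with Hif1a fl/fl and Ahr fl/fl, and Hif1a Ahr flox cells carried both floxed genes without Cre. The Cre recombinase is driven from Ncr1, a gene active in NK cells and some related lymphoid cells. Every KO group differs from its flox group by Cre as well as by the deletion, and effects of Cre itself cannot be told apart from those of the deleted gene. All groups shared hypoxia and interleukin 2, and no normoxic group was analysed here. Ages, sexes and pooling of mice were not given in the sources used here.

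The mammalian clock is a loop of transcription factors. CLOCK, or its relative NPAS2, pairs with BMAL1 and activates genes through E-box sequences, among them the Per, Cry and Nr1d genes and Dbp. PER and CRY proteins return to the nucleus and inhibit CLOCK and BMAL1, while the nuclear receptors REV-ERB alpha (Nr1d1) and REV-ERB beta (Nr1d2) repress Bmal1 and Nfil3 through ROR elements. DBP carries the rhythm to output genes that hold D-boxes. CLOCK, NPAS2 and BMAL1 belong to the bHLH-PAS family, as do HIF-1 alpha, the aryl hydrocarbon receptor (AhR) and their shared partner ARNT, and PER proteins carry PAS domains too. The files hold 1 time of culture, and the labels give no time of day, so a shift in the phase of a rhythm and a change in its mean level cannot be told apart. In bulk RNA, fewer cells of a type and less RNA per cell cannot be told apart either.

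The promoters show how close the binding sequences of these factors are. A RefSeq table of build GRCm38.p6 gave 300-base windows (250 bases before and 50 after the start of the gene) for 9 of the 10 clock genes, 12 windows in all. These windows were searched on both strands for the E-box CACGTG, the HIF core ACGTG, the AhR core GCGTG, the D-box TTATGNAA, the ROR element RORE and the cAMP response element TGACGTCA. Every CACGTG also holds the HIF core, on both strands. Only the form ACGTG was searched as the HIF core. A window without it is not shown to lack a HIF site, and the labels do not separate HIF from AhR sites. The 4 windows below are shown because their genes were among those that changed without Hif1a and because they differ in these letters. They are Per1 at chr11:69098699-69098998 (plus strand), Cry1 at chr10:85185005-85185304 (minus strand), Cry2 at chr2:92434020-92434319 (minus strand) and Nr1d2 at chr14:18239057-18239356 (minus strand), each printed 5′ to 3′ with motif matches in capitals.
Per1: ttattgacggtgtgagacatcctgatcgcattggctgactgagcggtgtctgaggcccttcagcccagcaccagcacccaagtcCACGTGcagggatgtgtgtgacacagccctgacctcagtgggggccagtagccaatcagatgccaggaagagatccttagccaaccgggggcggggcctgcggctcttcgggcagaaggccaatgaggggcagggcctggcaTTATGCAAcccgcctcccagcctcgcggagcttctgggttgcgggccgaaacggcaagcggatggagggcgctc
Cry1: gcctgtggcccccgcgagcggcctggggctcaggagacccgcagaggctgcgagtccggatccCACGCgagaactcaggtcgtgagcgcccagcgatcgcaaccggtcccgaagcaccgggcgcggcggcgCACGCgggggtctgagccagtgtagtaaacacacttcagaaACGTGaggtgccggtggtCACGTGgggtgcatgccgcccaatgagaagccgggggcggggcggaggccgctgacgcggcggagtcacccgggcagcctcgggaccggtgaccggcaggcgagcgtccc
Cry2: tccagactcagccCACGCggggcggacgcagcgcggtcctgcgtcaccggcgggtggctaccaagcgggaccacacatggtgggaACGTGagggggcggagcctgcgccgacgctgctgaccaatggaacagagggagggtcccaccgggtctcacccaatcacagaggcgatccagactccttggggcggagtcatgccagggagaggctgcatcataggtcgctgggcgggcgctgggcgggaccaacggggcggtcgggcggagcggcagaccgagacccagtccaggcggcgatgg
Nr1d2: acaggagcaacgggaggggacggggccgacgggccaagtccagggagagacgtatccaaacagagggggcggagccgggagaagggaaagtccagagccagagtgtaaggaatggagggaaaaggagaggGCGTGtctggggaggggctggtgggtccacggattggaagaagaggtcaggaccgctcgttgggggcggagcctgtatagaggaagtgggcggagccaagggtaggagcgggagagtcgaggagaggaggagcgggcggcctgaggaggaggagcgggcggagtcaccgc
The Per1 window holds an E-box that begins at position -166, counted from the gene's start, and a D-box that begins at position -24. In Cry1 an E-box begins at position -60, with a further HIF core at position -78 and 2 AhR cores. The Cry2 window has a HIF core, at position -165, and an AhR core but no E-box. In Nr1d2 the capitals mark a single AhR core, at position -120. These matches are letters in a window and do not show that a factor binds there.

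Over the 9 genes with a window, 2 (Per1 and Cry1) held an E-box, which 7.15% of the 32851 windows in the table held. The HIF core, searched as ACGTG only, was in 6 of the 9 genes and in 19.6% of all windows. The AhR core was in 9 of the 9 genes and in 32.4% of all windows, and Clock and Per1 have more than 1 window. A share of genes and a share of windows are therefore not like measures. The windows were also not matched for base content, and those of the clock genes held 47% to 76.7% G and C. A D-box was found in Per1 and, in 2 copies, in Per3, against 3.38% of all windows. None of the 9 held the ROR element or the cAMP response element, which 0.219% and 1.79% of all windows held.

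Hypoxic NK cells transcribed the clock genes at very different levels. Levels in CPM (counts scaled to library size, here with TMM factors) divided by the merged exon length in kilobases allow genes to be ranked within a sample, and the 3 flox groups gave the same broad order. Per1 was at 6.31 to 7.07 CPM per kilobase (the range of the 3 flox group means) and Cry1 at 5.93 to 6.29 CPM per kilobase. The library values of these genes overlapped in Hif1a flox and Hif1a Ahr flox, and in Ahr flox every Per1 value lay above every Cry1 value. Next came Nr1d2 at 1.76 to 2.15, Per2 at 1.59 to 1.98 and Dbp at 1.65 to 1.73 CPM per kilobase, whose ranges overlapped. Cry2 at 1.34 to 1.41 and Clock at 1.36 to 1.37 CPM per kilobase were alike. Nr1d1, at 0.171 to 0.362 CPM per kilobase, and Per3, at 0.162 to 0.199, were lower. Npas2 was lowest, at 0.0399 to 0.0924 CPM per kilobase.

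Estimated counts behind these levels were 1429 to 2456 per library for Per1, 949 to 1457 for Clock and 260 to 763 for Per2. They were 22 to 90 for Nr1d1 and 0 to 36 for Npas2, so those values are imprecise. Between the 3 flox groups none of the 10 clock genes was called by edgeR's quasi-likelihood F test (adjusted p from 0.657 to 0.996, with 0.245% of the 16747 genes called). Only Nr1d1 had an unadjusted p under 0.05 in that F test over the 3 groups, with 0.525 CPM in Hif1a flox, 0.831 CPM in Ahr flox and 1.11 CPM in Hif1a Ahr flox cells. For Hif1a Ahr flox against Hif1a flox cells alone, the same fit gave Per2 an unadjusted p of 0.0215 and Npas2 one of 0.0367 (adjusted p = 0.864 for each).

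**Figure D1:**
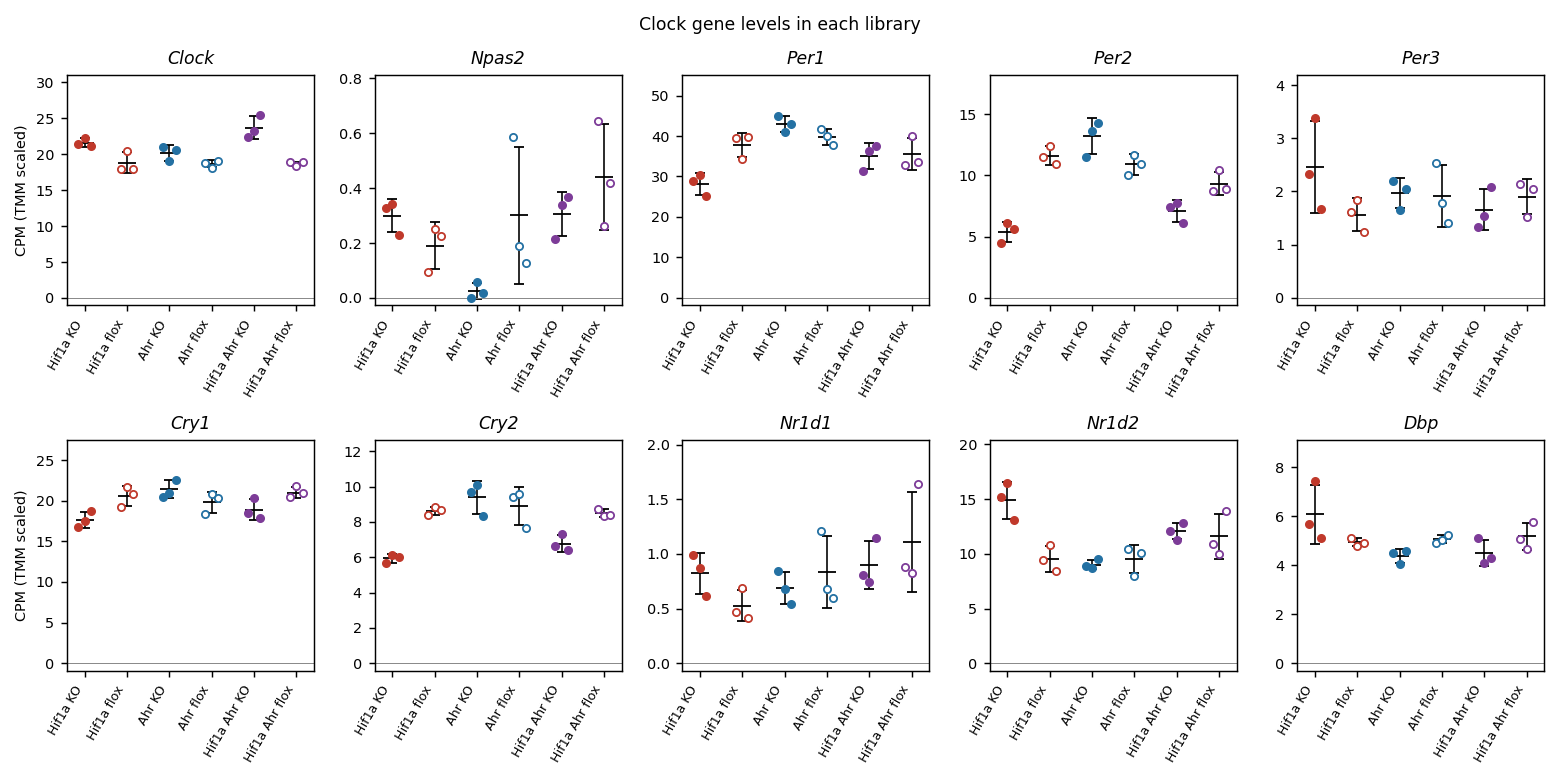
Each panel shows 1 clock gene, with CPM on the vertical axis (linear, from 0) and the 6 groups on the horizontal axis. Filled points are KO libraries, open points flox libraries, and the bars give mean and SD of 3 libraries. Per2 in the 3 Hif1a KO libraries lies at 4.50 to 6.09 CPM, below the 10.9 to 12.4 CPM of the Hif1a flox libraries.

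Loss of Hif1a moved 6 of the 10 clock genes. Per1, Per2, Cry1 and Cry2 fell, and Clock and Nr1d2 rose in Hif1a KO cells against Hif1a flox cells (adjusted p under 0.05 by edgeR's quasi-likelihood test, Benjamini-Hochberg adjusted over 16747 genes, as are all adjusted p below). In this comparison 35.4% of all genes tested were called, 17.6% higher and 17.8% lower. The median size of the log2 change was 0.59 over the 10 clock genes and 0.26 over all genes tested. The clock genes were chosen with earlier results of these data known, so such comparisons with all genes carry no test. Loss of Ahr moved only Npas2 of the 10, which fell, in a comparison where 6.92% of genes were called, 2.14% higher and 4.78% lower. The median size of the log2 change was 0.11 over the clock genes there and 0.15 over all genes. In Hif1a Ahr KO cells Clock rose and Per2 and Cry2 fell, and 31.3% of genes were called, 14.8% higher and 16.5% lower, so 3 of 10 is near the background share. The median size of the log2 change there was 0.25 over the clock genes and 0.24 over all genes.

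**Figure D2:**
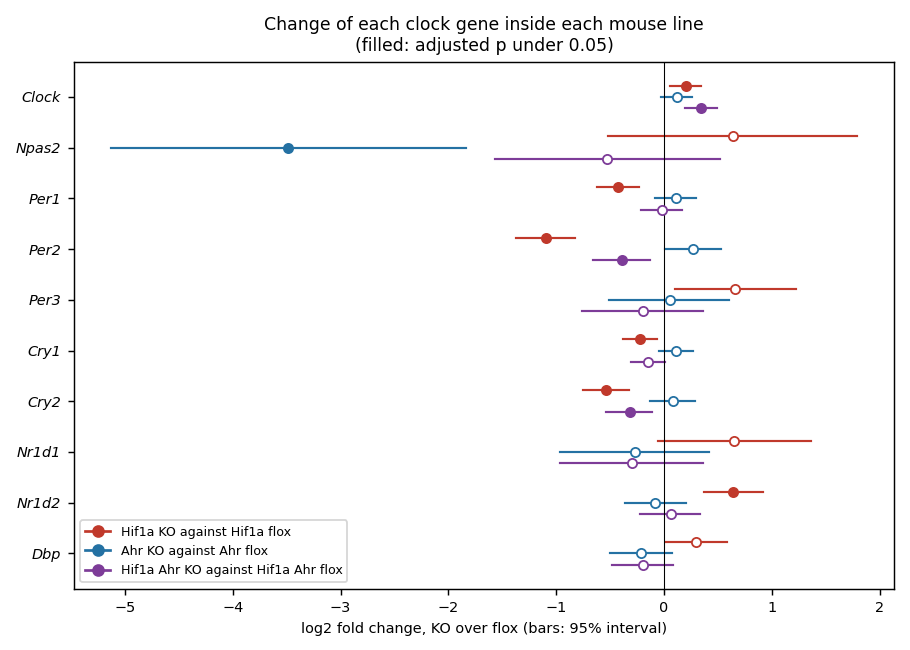
Log2 fold change of each clock gene (KO over flox, horizontal axis) in each of the 3 mouse lines, with 95% intervals as bars and filled points where the adjusted p was under 0.05. Per2 lies at -1.10 in the Hif1a line, at 0.27 in the Ahr line and at -0.39 in the Hif1a Ahr line.

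Clock encodes the bHLH-PAS activator that pairs with BMAL1. It had 21.4, 22.3 and 21.1 CPM in Hif1a KO libraries, against 18, 20.5 and 18 CPM in Hif1a flox libraries. All 3 KO values lay above all 3 flox values, in a comparison where 24.8% of genes did so and 25.1% did the reverse. The log2 change was 0.20 ± 0.07 (SE; adjusted p = 0.0368). This call was lost when any of Hif1a KO 1, 2 or 3 or Hif1a flox 1 or 3 was left out (adjusted p from 0.0541 to 0.142). It was also lost without a filter on low counts (adjusted p = 0.129) and in a fit of these 6 libraries alone (adjusted p = 0.0604). In Ahr KO libraries Clock stood at 21.0, 19.0 and 20.6 CPM, against 18.8, 18.1 and 19.1 CPM in Ahr flox libraries, a log2 change of 0.12 ± 0.07 with overlapping groups (adjusted p = 0.391). Hif1a Ahr KO libraries had 22.4, 23.2 and 25.5 CPM, against 18.9, 18.4 and 18.9 CPM in Hif1a Ahr flox libraries. The groups did not overlap, as 17.6% of genes did upward in that line, and Clock rose by 0.34 ± 0.07 on the log2 scale (adjusted p = 0.00127). This rise, a 1.26-fold difference, was the only clock gene rise in the Hif1a Ahr line.

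Npas2 encodes a relative of CLOCK that can take its place. Its estimated counts were 0, 3 and 1 in Ahr KO libraries, against 34, 10 and 7 in Ahr flox libraries. Every Ahr KO library was below every Ahr flox library, as in 15.3% of genes. Over the groups the ratio of summed counts, scaled for library size, was 0.0814, with a 95% interval of 0.0214 to 0.222 that covers counting error only. The fitted log2 change was -3.49 ± 0.78 (adjusted p = 0.0112), a value that rests on few counts. Without Ahr flox 1, the library with 34 counts, the log2 change was -2.55 and the call was lost (adjusted p = 0.0982). It was also lost, narrowly, without Ahr KO 1 (adjusted p = 0.0509) or Ahr KO 3 (adjusted p = 0.0505).
Where Hif1a was deleted too, the low level was not seen. Hif1a Ahr KO libraries had 12, 19 and 21 counts of Npas2, against 36, 14 and 23 in Hif1a Ahr flox libraries, and the groups overlapped (log2 change -0.53 ± 0.50, adjusted p = 0.463). Hif1a KO libraries had 19, 20 and 13 counts, against 5, 14 and 12 in Hif1a flox libraries (log2 change 0.64 ± 0.55, adjusted p = 0.404). Of the 20 tested genes nearest to Npas2 on chromosome 1 (10 on each side), 2 were lower and 0 higher in Ahr KO cells.

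The Per genes encode the PAS-domain repressors of the loop, and Per2 had the largest change of the 6 clock genes called without Hif1a. Per2 was at 4.50, 6.09 and 5.65 CPM in Hif1a KO libraries, against 11.5, 12.4 and 10.9 CPM in Hif1a flox libraries. The highest KO library was far below the lowest flox library. The mean was 5.41 ± 0.823 CPM in Hif1a KO cells and 11.6 ± 0.786 CPM in Hif1a flox cells (SD, n = 3 each), and Per2 fell by 1.10 ± 0.13 on the log2 scale (adjusted p = 3.42e-06). Among Ahr KO libraries Per2 stood at 11.5, 13.6 and 14.3 CPM, against 10.0, 11.7 and 10.9 CPM in Ahr flox libraries, a log2 change of 0.27 ± 0.12 with overlapping groups (adjusted p = 0.218). Hif1a Ahr KO libraries had 7.44, 7.76 and 6.10 CPM, against 8.69, 10.4 and 8.88 CPM in Hif1a Ahr flox libraries. These groups did not overlap, as 19.6% of genes did downward in that line, and Per2 fell by 0.39 ± 0.13 (adjusted p = 0.0243). That smaller change lost its call without Hif1a Ahr KO 3 (adjusted p = 0.127) or Hif1a Ahr flox 2 (adjusted p = 0.108), and in a fit of these 6 libraries alone (adjusted p = 0.0844).

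Per1, among the most abundant of the 10 per length, changed in the Hif1a line. It had 28.8, 30.4 and 25.2 CPM in Hif1a KO libraries, against 39.4, 34.4 and 39.8 CPM in Hif1a flox libraries. With no overlap between the groups, Per1 fell by 0.43 ± 0.09 on the log2 scale (adjusted p = 0.00137), which is a 1.34-fold lower level. In Ahr KO libraries it stood at 45.0, 41.0 and 42.9 CPM, against 41.7, 40.1 and 37.7 CPM in Ahr flox libraries (log2 change 0.11 ± 0.09, adjusted p = 0.562). Hif1a Ahr KO libraries had 31.4, 36.3 and 37.6 CPM, against 32.9, 40.1 and 33.7 CPM in Hif1a Ahr flox libraries. The 3 values of each group were interleaved, with a log2 change of -0.02 ± 0.09 and a 95% interval of -0.21 to 0.17 (adjusted p = 0.908).

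Per3, whose product is another PER protein with a lesser part in the loop, was low and variable. Hif1a KO libraries had 2.32, 3.39 and 1.68 CPM, against 1.61, 1.84 and 1.23 CPM in Hif1a flox libraries. KO library 3 lay inside the flox range, and the log2 change of 0.66 ± 0.27 was not called (adjusted p = 0.0621). With replicate numbers as a block, which the Hif1a line passed the check for, it was called (adjusted p = 0.0168), as it was without Hif1a KO 3 (adjusted p = 0.0196). The other lines had log2 changes of 0.05 ± 0.26 (Ahr KO, adjusted p = 0.953) and -0.20 ± 0.27 (Hif1a Ahr KO, adjusted p = 0.627), with overlapping groups. In GENCODE M21 the gene overlaps 41014 bases of Camta1 on the same strand.

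The Cry genes encode the cryptochromes, the main inhibitors of CLOCK and BMAL1 activity. Cry2 was at 5.65, 6.14 and 6.01 CPM in Hif1a KO libraries, against 8.39, 8.82 and 8.69 CPM in Hif1a flox libraries. Both groups were tight and far apart, at 5.93 ± 0.250 CPM in Hif1a KO cells and 8.63 ± 0.223 CPM in Hif1a flox cells (SD, n = 3 each). Cry2 fell by 0.54 ± 0.10 on the log2 scale (adjusted p = 0.000415). In Ahr KO libraries it stood at 9.71, 10.1 and 8.34 CPM, against 9.41, 9.59 and 7.67 CPM in Ahr flox libraries (log2 change 0.08 ± 0.10, adjusted p = 0.746). Hif1a Ahr KO libraries had 6.63, 7.29 and 6.40 CPM, against 8.73, 8.31 and 8.39 CPM in Hif1a Ahr flox libraries. These groups were separate as well, and Cry2 fell by 0.32 ± 0.10 (adjusted p = 0.0200). The call in the Hif1a Ahr line was lost without Hif1a Ahr KO 3 (adjusted p = 0.0825) or Hif1a Ahr flox 1 (adjusted p = 0.0561), and with library totals only (adjusted p = 0.0532). It was also lost without a filter on low counts (0.0685), by limma trend on the deposited log2 CPM (0.0507) and in a fit of these 6 libraries alone (0.0882). An antisense transcript, D930015M05Rik, overlaps Cry2 over 23417 bases in GENCODE M21 at a mean of 0.253 CPM, and fell with it in Hif1a KO cells by 1.72 on the log2 scale (adjusted p = 0.00475). Whether the authors' counting used strand is not given in the sources used here.

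Cry1 had a smaller log2 change than Cry2 in the Hif1a line. It had 16.7, 17.5 and 18.7 CPM in Hif1a KO libraries, against 19.2, 21.7 and 20.8 CPM in Hif1a flox libraries. The groups did not overlap, and Cry1 fell by 0.22 ± 0.08 on the log2 scale (adjusted p = 0.0273). The call did not hold with library totals only (log2 change -0.12, adjusted p = 0.226) or without any of Hif1a KO 1, Hif1a KO 2, Hif1a flox 2 and Hif1a flox 3 (adjusted p from 0.0751 to 0.117). Nor did it hold without a filter on low counts (adjusted p = 0.106) or by limma trend on the deposited log2 CPM (adjusted p = 0.235). The Ahr KO libraries had Cry1 at 20.5, 21.0 and 22.6 CPM, against 18.3, 20.8 and 20.3 CPM in Ahr flox libraries (log2 change 0.11 ± 0.08, adjusted p = 0.461). Cry1 in Hif1a Ahr KO libraries had 18.5, 20.3 and 17.9 CPM, against 20.4, 21.8 and 20.9 CPM in Hif1a Ahr flox libraries, with no overlap but no call (log2 change -0.15 ± 0.08, adjusted p = 0.136).

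The Nr1d genes encode the REV-ERB repressors, which bind heme. Nr1d2 went the opposite way to the Per and Cry genes that fell. It had 15.2, 16.5 and 13.1 CPM in Hif1a KO libraries, against 9.45, 10.8 and 8.43 CPM in Hif1a flox libraries. With no overlap, Nr1d2 rose by 0.64 ± 0.13 on the log2 scale (adjusted p = 0.000877), a 1.56-fold higher level. In Ahr KO libraries it stood at 8.85, 8.68 and 9.53 CPM, against 10.4, 8.01 and 10.1 CPM in Ahr flox libraries (log2 change -0.08 ± 0.13, adjusted p = 0.814). Nr1d2 in Hif1a Ahr KO libraries had 12.1, 11.3 and 12.8 CPM, against 10.9, 10.0 and 13.9 CPM in Hif1a Ahr flox libraries. Here the KO values lay within the flox range, with a log2 change of 0.06 ± 0.13 and a 95% interval of -0.22 to 0.33 (adjusted p = 0.791).

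Nr1d1 was far lower in CPM than Nr1d2. It had 0.986, 0.869 and 0.618 CPM in Hif1a KO libraries, against 0.473, 0.685 and 0.416 CPM in Hif1a flox libraries. KO library 3 overlapped the flox group, and the log2 change of 0.65 ± 0.34 was not called (adjusted p = 0.150), though with replicate numbers as a block it was (adjusted p = 0.0298). The log2 changes in the other lines were -0.27 ± 0.33 (Ahr KO, adjusted p = 0.726) and -0.30 ± 0.32 (Hif1a Ahr KO, adjusted p = 0.512), with overlapping groups. The gene overlaps 1075 bases of Thra, the thyroid hormone receptor alpha gene, on the opposite strand. Thra, at a mean of 2.98 CPM, rose by 1.16 on the log2 scale in Hif1a KO cells (adjusted p = 0.000284) and fell by 0.88 in Ahr KO cells (adjusted p = 0.0196), so its reads and those of Nr1d1 cannot be told apart in the shared stretch unless strand was used.

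Dbp encodes the PAR bZIP activator that drives D-box genes, and is a standard readout of clock output. Its level was 5.69, 7.42 and 5.11 CPM in Hif1a KO libraries, against 5.11, 4.80 and 4.91 CPM in Hif1a flox libraries. Hif1a KO 2 stood apart upward, KO library 3 was level with the highest flox library, and the log2 change of 0.30 ± 0.13 was not called (adjusted p = 0.0921). It was called when scaled by library totals only (0.40, adjusted p = 0.0337), by limma trend on the deposited log2 CPM (0.38, adjusted p = 0.0414) and without Hif1a KO 3 (0.41, adjusted p = 0.0327), and was 0.13 without Hif1a KO 2 (adjusted p = 0.498). Dbp in Ahr KO libraries had 4.49, 4.06 and 4.57 CPM, against 4.92, 5.03 and 5.25 CPM in Ahr flox libraries, with no overlap but no call (log2 change -0.21 ± 0.13, adjusted p = 0.410). Dbp in Hif1a Ahr KO libraries had 5.09, 4.08 and 4.30 CPM, against 5.06, 4.67 and 5.77 CPM in Hif1a Ahr flox libraries (log2 change -0.20 ± 0.13, adjusted p = 0.274).

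The change of Per2 against Nr1d2 within each library separated the Hif1a groups widely. The ratio of Per2 to Nr1d2 CPM was 0.296, 0.369 and 0.431 in Hif1a KO libraries, against 1.21, 1.15 and 1.29 in Hif1a flox libraries. No library of any other group came as low as the highest Hif1a KO library. The ratio in Ahr KO libraries was 1.30, 1.57 and 1.5, against 0.960, 1.46 and 1.08 in Ahr flox libraries, and the groups overlapped. It was 0.613, 0.688 and 0.477 in Hif1a Ahr KO libraries, against 0.800, 1.04 and 0.637 in Hif1a Ahr flox libraries, again with overlap. The pair was chosen after the values were seen, so this is a description with no test.

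**Figure D3:**
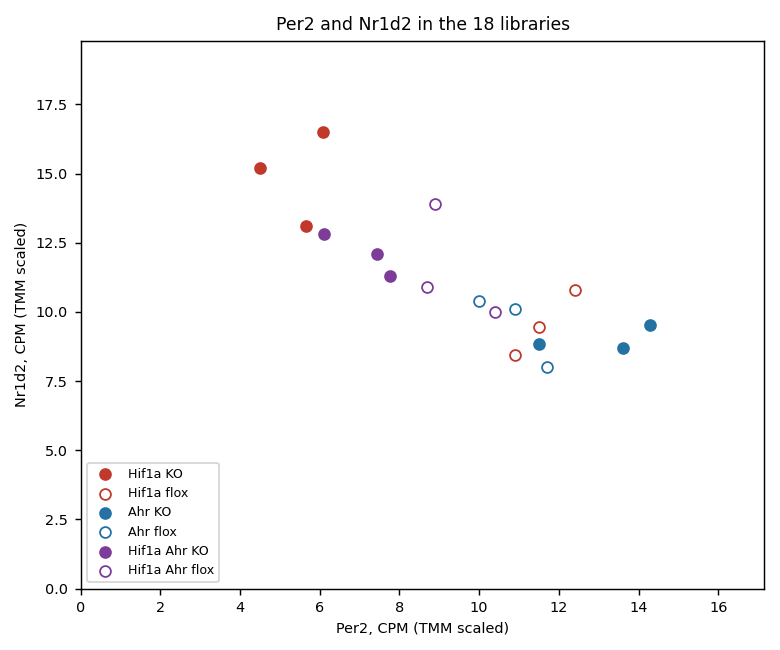
Per2 CPM (horizontal) against Nr1d2 CPM (vertical) in the 18 libraries, 1 point each, filled for KO and open for flox. The 3 Hif1a KO libraries sit at the upper left, with Per2 at 4.50 to 6.09 CPM and Nr1d2 at 13.1 to 16.5 CPM.

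The effects of the deletions were then compared with each other. The Hif1a KO effect differed from the Ahr KO effect in 7 of the 10 clock genes, in a comparison where 32.3% of all genes were called, 16.6% higher and 15.7% lower. Per2 (difference of log2 changes -1.37 ± 0.18, adjusted p = 1.54e-05), Cry2 (-0.62 ± 0.14, adjusted p = 0.00261), Per1 (-0.54 ± 0.13, adjusted p = 0.0037) and Cry1 (-0.33 ± 0.11, adjusted p = 0.0223) were lower with loss of Hif1a. Npas2 (4.12 ± 0.97, adjusted p = 0.00325), Nr1d2 (0.72 ± 0.19, adjusted p = 0.006) and Dbp (0.51 ± 0.19, adjusted p = 0.0463) were higher. Clock, Per3 and Nr1d1 did not pass (adjusted p from 0.15 to 0.579).

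The Hif1a Ahr KO effect on Per2 was smaller than the Hif1a KO effect (difference 0.71 ± 0.18, adjusted p = 0.0203, the only 1 of the 10, with 9.63% of all genes called, 4.52% higher). Per1 (0.41 ± 0.13, adjusted p = 0.0533) and Nr1d2 (-0.59 ± 0.18, adjusted p = 0.0524) narrowly missed. The Per2 difference also holds the level of the controls, with 9.32 CPM in Hif1a Ahr flox and 11.6 CPM in Hif1a flox cells. That control difference was -0.31 ± 0.12 on the log2 scale and was not called (adjusted p = 0.864). Against the Ahr KO effect, the Hif1a Ahr KO effect was lower for Per2 (-0.66 ± 0.18, adjusted p = 0.015) and higher for Npas2 (2.96 ± 0.96, adjusted p = 0.0441), 2 of 10 genes, with 16.4% of all genes called, 8.59% higher and 7.82% lower. None of the 10 departed from the sum of the single effects by edgeR's test (adjusted p from 0.814 to 0.988, with 0.0358% of all genes called). At an unadjusted p under 0.05 the same model gave Nr1d2 alone. For Per2 the single effects sum to -0.83 and the Hif1a Ahr KO effect was -0.39.

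The 6 clock genes called in Hif1a KO cells all had the same sign in Hif1a Ahr KO cells, and 3 of them were called there. For Per1 (log2 change -0.02) and Nr1d2 (0.06) that sign was not stable. Over the other settings Per1 ran from -0.07 to 0.08 and Nr1d2 from -0.04 to 0.21. Of all 10 clock genes, 6 had the same sign in both lines (60%), against 67.7% of all genes tested. Over all 5923 genes called in Hif1a KO cells, 83.1% had the same sign and 48.3% were called the same way in the Hif1a Ahr line. These are different libraries, and the lines share no control samples.

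Among other genes of the clock pathway, a list of 42 genes was read the same way, 40 of which were tested. In Hif1a KO cells 8 rose and 7 fell (37.5% of those tested, against 35.4% of all genes), in Ahr KO cells 0 rose and 2 fell (5.00%, against 6.92%), and in Hif1a Ahr KO cells 6 rose and 9 fell (37.5%, against 31.3%). Their median log2 change was 0.01, 0.02 and -0.02 in the 3 lines in that order, beside -0.01, 0.00 and -0.02 over all genes tested. Scaling by library totals only gave 14 higher and 5 lower in Hif1a KO cells, beside 4117 higher and 2155 lower over all genes. With replicate numbers as a block the Ahr line gave 4 higher and 5 lower. Over all genes the block gave 2423 calls in that line, against 1159 without it.

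Of the 6 repressors and PAR bZIP factors that share E-boxes or D-boxes with the clock, 5 were called in Hif1a KO cells, 0 in Ahr KO cells and 3 in Hif1a Ahr KO cells. As shares these are 83.3%, 0% and 50%, against 35.4%, 6.92% and 31.3% of all genes. This part holds only 6 genes, and the lists were chosen with earlier results of these data known. The shares are therefore descriptions and carry no test. The other parts of the list in Hif1a KO cells gave 15.4% (kinases, ubiquitin ligases and stability), 33.3% (cofactors), 40% (outputs) and 50% (core loop partners). Bhlhe40, which encodes the E-box repressor DEC1 and is a known hypoxia-responsive gene, was at 340 ± 18.1 CPM in Hif1a KO cells and 658 ± 75.5 CPM in Hif1a flox cells (SD, n = 3 each), and fell by 0.95 ± 0.11 on the log2 scale (adjusted p = 3.29e-06). In the Hif1a Ahr line it fell by 0.52 ± 0.11 (adjusted p = 0.00142). Its paralog Bhlhe41 (DEC2) went the other way: 1.76 ± 0.523 CPM in Hif1a KO cells and 0.359 ± 0.0683 CPM in Hif1a flox cells, a rise of 2.29 ± 0.33 (adjusted p = 3.21e-05). In Hif1a Ahr KO cells Bhlhe41 was at 3.74 ± 1.08 CPM, and in Hif1a Ahr flox cells at 0.255 ± 0.130 CPM, a rise of 3.86 ± 0.34 (adjusted p = 1.21e-07). Nfil3, which encodes the D-box repressor E4BP4 that NK cells need for their development, fell to 112 ± 20.5 CPM in Hif1a KO cells, against 251 ± 26.4 CPM in Hif1a flox cells (log2 change -1.16 ± 0.13, adjusted p = 3.37e-06). In the Hif1a Ahr line it fell by 0.70 ± 0.13 (adjusted p = 0.00052).

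Ciart, which encodes the CLOCK repressor CHRONO, fell by 1.07 ± 0.24 in Hif1a KO cells, to 3.20 to 5.21 CPM against 6.89 to 11 CPM in Hif1a flox cells (adjusted p = 0.00256). In Ahr KO cells Ciart was at 13.2 ± 0.560 CPM and in Ahr flox cells at 8.77 ± 1.45 CPM. Every Ahr KO library was above every Ahr flox library, as in 13.8% of genes. The log2 change of 0.59 ± 0.23 was not called (adjusted p = 0.158). With the block, in a line that passed the pairing check, Ciart was called in Ahr KO cells (log2 change 0.60, adjusted p = 0.00894). So were Bhlhe40 (0.25, adjusted p = 0.0117), Nfil3 (0.28, adjusted p = 0.0244), Bhlhe41 (1.19, adjusted p = 0.00641) and Bmal1 (-0.25, adjusted p = 0.0294). Tef, a PAR bZIP relative of Dbp, rose by 0.37 ± 0.08 in Hif1a KO cells (adjusted p = 0.00226) with overlapping groups.

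Of the core partners, Bmal1 was at 16.9 ± 0.813 CPM in Hif1a KO cells and 13.5 ± 1.27 CPM in Hif1a flox cells, a rise of 0.33 ± 0.10 (adjusted p = 0.0167) that was lost without Hif1a KO 2 (adjusted p = 0.0688) or Hif1a flox 3 (adjusted p = 0.0875). Its log2 change was -0.25 ± 0.10 (Ahr KO, adjusted p = 0.159) and -0.21 ± 0.10 (Hif1a Ahr KO, adjusted p = 0.133). Rora, which encodes an activator at ROR elements, rose by 0.88 ± 0.26 in Hif1a KO cells (adjusted p = 0.0174), lost without any of Hif1a KO 2, Hif1a flox 1 and Hif1a flox 3. It fell by 2.22 ± 0.29 in Ahr KO cells (adjusted p = 0.000393) and, with both genes deleted, by 1.25 ± 0.27 (adjusted p = 0.00254). Rora lies on chromosome 9 in a stretch where many genes were lower in all 3 lines: of its 20 nearest tested genes 14 were lower in Ahr KO cells, 12 in Hif1a KO cells and 13 in Hif1a Ahr KO cells. For the 10 clock genes, 0 to 2 of the 20 nearest were lower in Ahr KO cells and 1 to 7 in Hif1a KO cells.

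Enzymes tied to clock timing included Nampt, the rate-limiting enzyme of NAD salvage. It was at 65.5 ± 2.98 CPM in Hif1a KO cells and 125 ± 5.71 CPM in Hif1a flox cells, and fell by 0.93 ± 0.07 (adjusted p = 2.12e-08). In Hif1a Ahr KO cells it fell by 0.97 ± 0.07 (adjusted p = 1.16e-08), and in Ahr KO cells the log2 change was -0.09 ± 0.07 (adjusted p = 0.506). Usp2, a deubiquitinase that acts on PER1 and BMAL1, rose by 0.41 ± 0.12 in Hif1a KO cells (adjusted p = 0.0102) and by 0.78 ± 0.12 with both genes deleted (adjusted p = 5.17e-05). Prkaa1, the AMPK subunit that phosphorylates CRY1, rose by 0.30 ± 0.05 in both (adjusted p = 0.000258 and 0.000277). Btrc, a ubiquitin ligase subunit for PER proteins, fell by 0.28 ± 0.07 in Ahr KO cells (adjusted p = 0.0258; lost without any of Ahr KO 2, Ahr KO 3, Ahr flox 1 and Ahr flox 3) and by 0.44 ± 0.07 with both genes deleted (adjusted p = 0.000163). Kdm5a, a cofactor of CLOCK and BMAL1, fell by 0.28 ± 0.07 in Hif1a KO cells (adjusted p = 0.00333). The casein kinase genes Csnk1d and Csnk1a1, whose products phosphorylate PER, were called in none of the 3 lines. In Hif1a Ahr KO cells Csnk1e rose by 0.21 ± 0.08 (adjusted p = 0.0429) with overlapping groups, and was not called without Hif1a Ahr KO 3 (0.15, adjusted p = 0.198) and under several other settings. Csnk2a1, a subunit gene of casein kinase 2, rose by 0.22 ± 0.06 there (adjusted p = 0.00977; 0.0642 without Hif1a Ahr KO 2). With the block Csnk1e was also called in Hif1a KO cells (0.16, adjusted p = 0.0423).

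**Figure D4:**
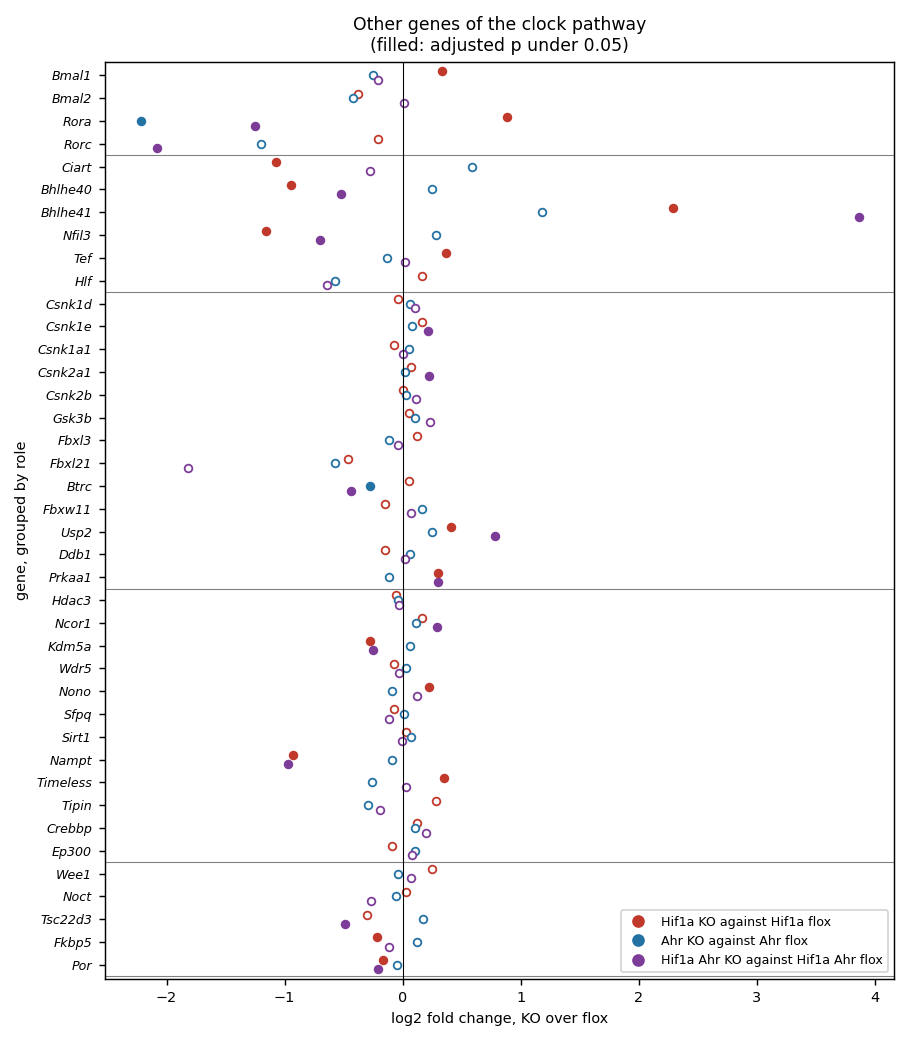
Log2 fold change (KO over flox, horizontal axis) of the 40 tested genes of the clock pathway list, grouped by role down the page, with colors for the 3 lines and filled points where the adjusted p was under 0.05. Bhlhe41 lies farthest right at 3.86 in the Hif1a Ahr line, and Nfil3 and Bhlhe40 lie left of 0 in both lines without Hif1a.

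The relatives of CLOCK in the bHLH-PAS family also changed, with 10 of 15 listed genes tested. In Hif1a KO cells 3 rose and 2 fell, in Ahr KO cells 1 rose and 1 fell, and in Hif1a Ahr KO cells 4 rose and 2 fell. As shares of those tested these are 50%, 20% and 60%, against 35.4%, 6.92% and 31.3% of all genes. These relatives too were chosen with earlier results of these data known, so the shares carry no test. The list includes the deleted genes Hif1a and Ahr themselves. Hif1a is among the genes that rose in both lines without it, so these shares count a targeted gene. The gene that fell in Ahr KO cells was Ahrr. Arnt2 fell by 3.00 ± 0.31 in Hif1a KO cells (adjusted p = 7.87e-06), and Arnt, the partner of HIF-1 alpha and AhR, rose by 0.44 ± 0.07 (adjusted p = 6e-05). Ahrr, the AhR repressor gene, fell by 2.85 ± 0.47 in Ahr KO cells (adjusted p = 0.00298) and by 2.59 ± 0.46 with both genes deleted (adjusted p = 0.000875). Gene-level Hif1a transcripts rose by 1.58 ± 0.11 in Hif1a KO cells (adjusted p = 6.61e-09) and by 1.68 ± 0.11 with both genes deleted (adjusted p = 3.07e-09), and Ahr transcripts had a log2 change of 0.27 ± 0.20 in Ahr KO cells (adjusted p = 0.515). Epas1, which encodes HIF-2 alpha, fell by 2.25 in Hif1a KO cells and was called in all 26 other settings (adjusted p at most 0.0173). Its log2 change in Hif1a Ahr KO cells was -0.85, called only in 2 of 26 other settings. With the block Ahr was called in Ahr KO cells (0.27, adjusted p = 0.0337). So was Epas1 (0.75, adjusted p = 0.00212), which no other setting called in that line. Whole-gene counts do not read the deleted exons alone, so neither checks the deletion.

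Libraries of a group differed little in the stable members and much in the sparse ones. The pooled SD of log2 CPM within groups was 0.07 for Clock and 0.08 for Cry1, 0.16 for Per2, 0.17 for Nr1d2, 0.35 for Per3, 0.40 for Nr1d1 and 0.64 for Npas2. The median over 500 tested genes of like level was 0.11 beside Clock, 0.14 beside Per2 and 0.32 beside Nr1d1. Hif1a KO 2 stood above its group mean in 9 of 10 clock genes and Hif1a flox 2 in 8 of 10, while Hif1a KO 3 did so in 3 of 10. Without both libraries numbered 2, an alternative chosen after seeing the data, 5 clock genes were called in the Hif1a line, 2 higher and 3 lower, and Cry1 was the one lost (adjusted p = 0.2). After group means were removed, the deviations of Per2 and Cry1 had a Pearson correlation of 0.72 over the 18 libraries, those of Nr1d1 and Nr1d2 0.71 and those of Cry1 and Nr1d1 -0.54, out of 45 pairs. The points share libraries and scaling factors, and these values are descriptions.

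**Figure D5:**
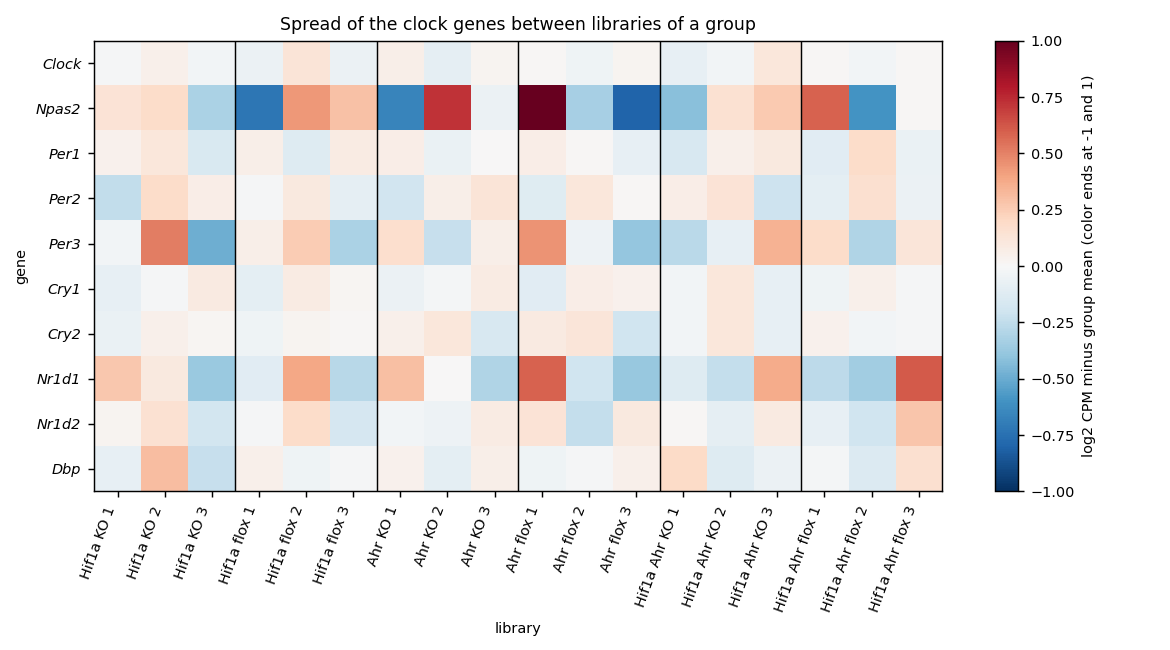
Log2 CPM minus the mean of its group for each clock gene (rows) in each of the 18 libraries (columns, KO left of flox in each line, vertical lines between groups), red above and blue below. Npas2, Per3 and Nr1d1 hold most of the strong colors, and the Hif1a KO 2 column is red in nearly every row.

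Over the 18 libraries, the genes whose log2 CPM followed each clock gene most closely, of 10779 genes at 1 CPM or more, were found by Pearson correlation. Per2 was most like Hdlbp (0.95), Slc37a4 (0.94) and Cflar (0.94). Per1 was most like Arl10 (0.96), Cry2 like Srebf1 (0.94), Nr1d2 like Idh2 (0.96), Clock like Extl3 (0.95), Cry1 like Cstf2 (0.88) and Dbp like Mrpl58 (0.89). The sparse genes had weaker best matches, at 0.85 for Npas2 with Cxcr3, 0.85 for Per3 with Dqx1 and 0.77 for Nr1d1 with Pidd1. Libraries of a group share their deletion, so these values mostly follow the 6 groups and carry no test.

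Library totals were 54420649 to 55732940 estimated counts, with 24103 to 25669 genes above 0. The 9 NK markers were all present and summed to 14100 to 15900 CPM in Hif1a KO cells, against 20400 to 24800 CPM in Hif1a flox cells, to 25600 to 30300 CPM in Ahr KO cells, against 18900 to 25800 CPM in Ahr flox cells, and to 19200 to 20300 CPM in Hif1a Ahr KO cells, against 18600 to 23700 CPM in Hif1a Ahr flox cells. Of these 9 genes, 3 were called higher and 4 lower in Hif1a KO cells. In Ahr KO cells 2 were called higher and 0 lower, and in Hif1a Ahr KO cells 3 higher and 0 lower. Their median log2 change was -0.26, 0.24 and 0.21 in that order, so the sums do not hold for every NK marker. Ncr1 itself rose in every KO group (log2 changes 0.92 to 1.06, adjusted p at most 1.85e-05). The 7 T cell markers summed to 22.1 to 35.3 CPM in Hif1a KO cells, against 78.2 to 114 CPM in Hif1a flox cells, to 51.4 to 56.0 CPM in Ahr KO cells, against 101 to 123 CPM in Ahr flox cells, and to 22.7 to 57.6 CPM in Hif1a Ahr KO cells, against 130 to 146 CPM in Hif1a Ahr flox cells. Of these 7 genes, 3 were called lower in Hif1a KO cells, 2 in Ahr KO cells and 2 in Hif1a Ahr KO cells, and 0 higher. Their median log2 change was -0.4, 0.72 and 0 in that order, so the sums do not hold for every T cell marker. The 5 macrophage and monocyte markers summed to 51.8 to 55.7 CPM in Hif1a KO cells, against 34.2 to 42.9 CPM in Hif1a flox cells, to 24.1 to 30.1 CPM in Ahr KO cells, against 31.4 to 55.3 CPM in Ahr flox cells, and to 38.2 to 47.6 CPM in Hif1a Ahr KO cells, against 38.6 to 46.2 CPM in Hif1a Ahr flox cells. Most of these sums is Cd68: in Hif1a KO cells it was called higher (52.7 CPM, against 31.4 CPM in Hif1a flox cells), while the other 3 of the 4 markers tested were called lower, and the median log2 change of the 4 was -2.57. The 5 neutrophil markers summed to 0.0852 to 0.138 CPM in Hif1a KO cells, against 1.08 to 4.82 CPM in Hif1a flox cells, to 0.476 to 1.32 CPM in Ahr KO cells, against 0.432 to 1.54 CPM in Ahr flox cells, and to 0.157 to 0.359 CPM in Hif1a Ahr KO cells, against 0.910 to 4.99 CPM in Hif1a Ahr flox cells. Of the 4 tested, 3 were called lower in Hif1a KO cells, 0 in Ahr KO cells and 4 in Hif1a Ahr KO cells, and Elane was at 0 in every library of the Hif1a KO and Hif1a Ahr KO groups. The part of these cell types in the clock gene changes was not tested.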

How the data were processed

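Natural killer cells of 6 genotype groups (3 libraries each) were sequenced from total RNA with a strand-specific mRNA library, per the labels' protocols. Per the submitters' processing notes, Trim Galore 0.6.4, kallisto 0.4.6 and edgeR 3.17 were used with build GRCm39; the annotation and strand setting are not given in the sources used here. The deposited expected counts per gene are not normalised (65.0% to 67.3% of values above 0 were not whole, within 1e-06). The deposited log2 CPM values match, to 5.33e-15, those computed here from the counts (prior count 2).

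The counts entered edgeR 4.0.16 (R 4.3.3) with TMM factors, a low-count filter by filterByExpr (minimum count 10, by group), 1 mean per group over 18 libraries, robust quasi-likelihood fits (12 residual degrees of freedom, common biological coefficient of variation 0.117), 2-sided, called at a Benjamini-Hochberg adjusted p under 0.05 over 16747 genes. Errors beside log2 changes are standard errors. limma 3.58.1 and DESeq2 1.42.0 (on rounded counts) served as alternatives. The code was tested on simulated data. Replicate spread exceeded counting error (chi-square per degree of freedom 14.6 to 60.1 within groups).

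The fit of group means used no pairs. A block of replicate numbers was an alternative setting, fitted in every line whether or not the line passed a pairing check. The check asked that every same-numbered KO and flox pair correlated above 0.1 (deviations from group means, 9986 genes). This held in the Hif1a line (0.31, 0.53, 0.30) and the Ahr line (0.36, 0.33, 0.53), from the data alone, and not in the Hif1a Ahr line. P-values measure the spread between these samples, since the labels say biological replicates but not which mice. Members and gene lists were chosen with earlier results of these data known. Named genes are the 10 clock genes, genes of the lists, the genes most like each clock gene, and overlapping or neighbouring genes, the last chosen after values were seen. Exon lengths, gene overlaps and gene order came from GENCODE M21 and promoters from RefSeq GRCm38.p6, an earlier build than that of the counts.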

Additional observations from a re-analysis of the deposited data

Results flagged for a closer look

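Of the clock genes, 7 had a Hif1a KO effect that differed from the Ahr KO effect (difference of log2 changes tested in the same edgeR fit, adjusted over all genes). The differences were -1.37 for Per2, 4.12 for Npas2, -0.62 for Cry2, -0.54 for Per1, 0.72 for Nr1d2, -0.33 for Cry1 and 0.51 for Dbp. Those of Per2, Npas2, Cry2, Per1 and Nr1d2 passed in 23 of 23 other settings, that of Cry1 in 16 and that of Dbp in 8.

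The Hif1a Ahr KO effect differed from the Hif1a KO effect in Per2, by 0.71, which passed in 20 of 23 settings. It was lost without Hif1a KO 1, Hif1a Ahr KO 2 or Hif1a Ahr flox 1. From the Ahr KO effect it differed in Per2, by -0.66 (23 of 23 settings), and in Npas2, by 2.96 (10 of 23 settings), where Ahr KO libraries held 0, 3 and 1 counts.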

How the results depend on the processing

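The changes of Per1, Per2, Cry2 and Nr1d2 in Hif1a KO cells passed the threshold under every alternative run, and no clock gene that was called changed direction under any of them. In the Hif1a line 246 of 270 recomputed values kept their call, 15 lost it and 9 gained it. The corresponding numbers were 256 of 259 with 3 lost in the Ahr line and 251 of 260 with 9 lost in the Hif1a Ahr line. Leaving out each library in turn gave 4 to 7 clock genes called in Hif1a KO cells (6 with all libraries), 0 to 1 in Ahr KO cells (1) and 1 to 3 in Hif1a Ahr KO cells (3). For the differences of effects it gave 5 to 7 (Hif1a KO minus Ahr KO, 7), 0 to 3 (Hif1a Ahr KO minus Hif1a KO, 1), 1 to 3 (Hif1a Ahr KO minus Ahr KO, 2) and 0 for the departure from the sum and for the flox groups.

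A fit of only the 6 libraries of a comparison called 0 clock genes in Ahr KO cells, where Npas2 no longer passed the filter on low counts, and 1 in Hif1a Ahr KO cells. Without a filter on low counts 2 genes differed between the Hif1a Ahr KO and Hif1a KO effects. With limma voom, and with limma trend on the deposited log2 CPM, 1 gene differed between the Hif1a Ahr KO and Ahr KO effects. The cause of these was not tested, apart from the filter named.

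With replicate numbers as a block, Hif1a KO cells had 8 called clock genes (4 higher, 4 lower), Ahr KO cells 1 and Hif1a Ahr KO cells 3. Of all 16747 genes tested, the block called 6814 in the Hif1a line, 2423 in the Ahr line and 6256 in the Hif1a Ahr line. In the Hif1a Ahr line the numbers did not pass the pairing check (0.07, 0.45, 0.27), and flox library 1 correlated best with KO library 3 (0.09). The genes gained were Per3 and Nr1d1, and the block changed no other clock gene call. Of the pathway list in the Ahr line, a fit of 6 libraries called 3 higher and 3 lower, and leaving out 1 library called 1 to 3 in all. That fit of 6 libraries called 1697 of all 15567 genes it tested. Over all genes the block gave 2423 calls in the Ahr line, against 1159 without it, and a fit of 6 libraries gave 3100 in the Hif1a Ahr line, against 5245. Leaving out 1 library of the Ahr line gave 467 to 1333. Library totals only moved the median of all genes in Hif1a KO cells to 0.091 (log2), and 65.6% of calls were then higher, against 49.8%.

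Limits are the 3 libraries per group, the few counts of Npas2, Nr1d1 and Per3, a single time of culture, and the absence from these comparisons of a group with Cre alone.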
